A study of Mus musculus with 6 samples.

Results

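Transcripts of 10 transcription factors that set the identity of brown adipocytes were followed in whole brown fat of cold-exposed wild-type and ADCY3∆AT mice. The 10 genes (Prdm16, Ebf1, Ebf2, Zic1, Lhx8, Tbx1, Tbx15, Cebpa, Cebpb and Klf15) were taken by symbol from a list of lineage and identity factors, and each matched 1 of the 54385 rows of the deposited table. Of these, 9 passed the low-count filter, and Tbx1 did not. Samples were 3 libraries of wild-type (wt/wt) and 3 of ADCY3∆AT mice, all C57BL/6N, aged 20 weeks. Every mouse was fed chow for its first 8 weeks, then high-fat food (HFD) for 12 weeks, and was kept at 4 °C for 24 h. The study concerns a truncated form of the adenylyl cyclase ADCY3 that brown fat makes in the cold, and the series text calls ADCY3∆AT a knockout of Adcy3-AT without describing the allele. That text also names an inguinal depot where the sample labels name an interscapular one. Whether the numbered replicates came from different animals is not stated, and the p-values speak of variation between these libraries, part or all of which may be technical.

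Brown adipocytes burn fuel to make heat, and share a developmental origin with skeletal muscle and dorsal dermis rather than with most white fat. PRDM16 is a zinc finger coregulator that holds cells in the brown fate, and acts with the C/EBP factors and PPARγ. EBF2 opens chromatin at brown-selective genes and EBF1 is its close relative in adipocytes. ZIC1 and LHX8 mark classical interscapular brown fat, TBX15 is shared by brown and some white depots, and TBX1 has been used as a marker of the inducible beige adipocytes of white fat. C/EBPα and C/EBPβ drive adipocyte differentiation in general, and KLF15 is a glucocorticoid-responsive regulator of amino acid, lipid and glucose metabolism. Cyclic AMP, the product of adenylyl cyclases such as ADCY3, acts in the nucleus largely through CREB, which binds the letters TGACGTCA or their shorter core, TGACG.

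Sequences just upstream of the transcription start are shown for 4 factors: the pair most abundant in this tissue (Cebpa and Cebpb), the factor that varied most between libraries (Klf15) and the coregulator best known for holding the brown fate (Prdm16). Each is the 250 bases before the RefSeq start on GRCm38.p6, 5′ to 3′ on the gene's own strand, with TGACG or its reverse complement in capitals. The windows lie at chr7:35119043-35119292 (plus strand), chr2:167688665-167688914 (plus strand), chr6:90462326-90462575 (plus strand) and chr4:154636874-154637123 (minus strand).
Cebpa: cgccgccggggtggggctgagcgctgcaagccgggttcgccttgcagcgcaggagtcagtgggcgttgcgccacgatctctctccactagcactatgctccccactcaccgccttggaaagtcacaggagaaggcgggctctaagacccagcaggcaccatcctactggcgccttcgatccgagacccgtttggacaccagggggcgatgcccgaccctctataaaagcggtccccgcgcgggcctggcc
Cebpb: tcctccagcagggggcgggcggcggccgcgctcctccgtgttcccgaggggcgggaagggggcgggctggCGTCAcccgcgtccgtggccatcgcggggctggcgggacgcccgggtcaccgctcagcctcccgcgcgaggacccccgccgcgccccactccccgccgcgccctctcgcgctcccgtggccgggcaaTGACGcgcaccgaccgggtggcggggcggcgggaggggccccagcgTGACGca
Klf15: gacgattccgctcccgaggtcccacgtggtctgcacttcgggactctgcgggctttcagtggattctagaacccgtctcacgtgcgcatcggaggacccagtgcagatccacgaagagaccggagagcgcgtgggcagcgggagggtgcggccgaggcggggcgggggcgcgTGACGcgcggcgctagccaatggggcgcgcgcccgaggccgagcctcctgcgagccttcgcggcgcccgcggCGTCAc
Prdm16: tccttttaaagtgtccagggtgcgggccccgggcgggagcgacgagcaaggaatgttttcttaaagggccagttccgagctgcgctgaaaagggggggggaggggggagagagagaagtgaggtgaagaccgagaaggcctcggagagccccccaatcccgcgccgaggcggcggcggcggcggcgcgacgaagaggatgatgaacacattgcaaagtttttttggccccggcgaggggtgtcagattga
RefSeq windows were matched for 8 of the 10 members (10 windows in all), and Ebf2 and Tbx15 were not matched. On both strands, TGACG occurred 3 times upstream of Cebpb, at 180, 53 and 7 bases before the start, and 2 times upstream of Klf15, at 78 and 6 bases. Tbx1 has 2 windows, of which 1 held it. It was not found in the windows of Cebpa, Prdm16, Zic1, Lhx8 and Ebf1, and of all 32851 promoter windows of that length 17.8% held it. The full TGACGTCA, which contains the core, was in none of the members' windows and in 1.55% of all windows. An EBF-type CCCNNGGG was found in the Cebpb window (11.8% of all windows) and a C/EBP-type TTGCNNAA in none of the members' windows (9.56% of all). These matches describe letters only.

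Library totals ranged from 44826777 to 54933588 estimated counts. In wild type, Adcy3 had 651.9 to 727.8 CPM (a gene's counts relative to its library's total, scaled between libraries with TMM factors) and a row outside the annotation, ENSMUSG66666620654, had 477.4 to 628.6 CPM. In ADCY3∆AT these were 341.9 to 505.6 CPM and 0 counts in all 3 libraries, which allows up to 3 counts in each. Adcy3 had a log2 fold change of -0.78 (edgeR adjusted p = 0.158, DESeq2 adjusted p = 4.23e-07). DESeq2 called both rows (and 1.17% of all genes). No source used here says what the row outside the annotation is. It was the 1 gene of 18114 that edgeR called (adjusted p = 7.9e-06, DESeq2 3.51e-43). The groups did not overlap on either row. Adipocyte markers were abundant in every library, with a sum of 18820 to 21470 CPM over 10 genes. The depot labels were set beside the factors themselves. Zic1 was present in all 6 libraries (428 to 567 counts), and so was Lhx8 (109 to 150 counts). Of the white depot genes, Tcf21 and Hoxc10 had 0 counts in every library, which allows up to 3 counts in each, and Hoxc9 had 1 to 6 counts. Hoxc8 was nonetheless present, with 72 to 117 counts.

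The factors spanned a wide range of levels when scaled to exon length. Per kilobase of exon, Cebpa led with 113 ± 7.92 CPM (SD over 6 libraries) and Cebpb followed with 92.6 ± 9.34, with overlapping ranges. Next came Klf15 (13.5 ± 4.3) and Ebf1 (10.8 ± 0.631), which also overlapped, and then Ebf2 (8.16 ± 0.798), whose range lay apart from that of Ebf1. Prdm16 had 2.76 ± 0.216 CPM per kilobase, Zic1 1.78 ± 0.282, Lhx8 1.12 ± 0.177 and Tbx15 1.09 ± 0.121, the last 2 overlapping. Tbx1 was listed with 0, 2 and 2 counts (wild type) and 0, 1 and 2 counts (ADCY3∆AT), which is under the limit of 3 counts that a count of 0 allows. Scaled to the longest transcript instead of all exons, Ebf1 (17.6) came before Klf15 (15.2), and the other ranks stayed as given.

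**Figure D1:**
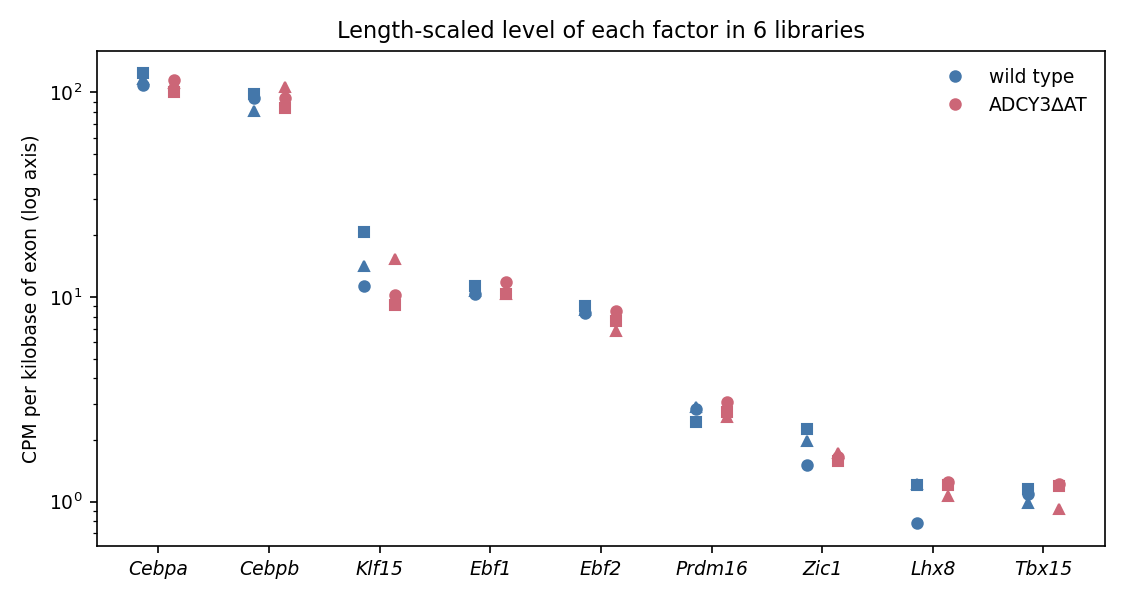
Level of 9 factors in CPM per kilobase of exon (log axis), 1 point per library, blue for wild type and red for ADCY3∆AT, with circles, squares and triangles for replicates 1, 2 and 3. Cebpa and Cebpb, from 80.7 to 124.1, stand above all others, and Lhx8 and Tbx15 are lowest. Tbx1, near 0, is left out.

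None of the 9 tested factors differed between the genotypes past an adjusted p of 0.05 in edgeR's quasi-likelihood test, where 1 of all 18114 genes was called (0.00552%), and none was called by DESeq2 (1.17% of its 19841 genes). An unadjusted p under 0.05 was reached by 0 of 9 factors, against 11% of all genes, and the groups overlapped for all 9, against 16.5% of genes whose groups did not. For 5 factors the fold change was positive and for 4 negative, the median log2 value was 0.01 and the median size 0.10. Over all genes tested these were 0.00 and 0.12. Ebf2 came under an unadjusted p of 0.05 with library totals alone (10% of 18114 genes did), limma voom (11%) and robust estimation (10.8%). It also did so with DESeq2 (5.63% of 30696 genes) and no low-count filter (8.39% of 30714), the last with Klf15 as well. The shares of these last 2 settings include low-count genes that the filter removes elsewhere. Ebf2 did so too without ADCY3∆AT replicate 1 (9.39%), Klf15 without ADCY3∆AT replicate 3 (14%), and Zic1 with Klf15 without wild-type replicate 1 (10.7%). The groups did not overlap for Ebf2 without ADCY3∆AT replicate 1 (27% of all genes), for Tbx15 and Klf15 without ADCY3∆AT replicate 3 (31.8%), and for Ebf2, Zic1 and Cebpa without wild-type replicate 1 (28.7%). A p above the threshold does not show that levels were equal, and the 95% intervals given below say how large a difference remains possible.

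**Figure D2:**
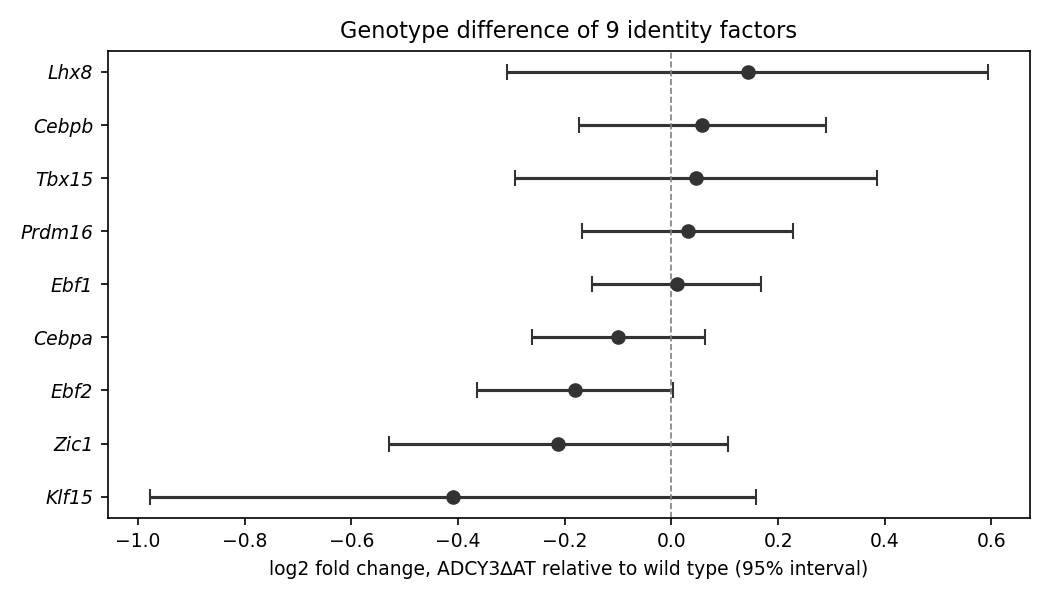
Log2 fold change of ADCY3∆AT relative to wild type for 9 factors, with 95% intervals from the quasi-likelihood fit on 3 libraries per genotype. Every interval includes 0, that of Klf15 is the widest (-0.98 to 0.16) and those of Ebf1 (-0.15 to 0.17) and Cebpa (-0.26 to 0.06) are the narrowest.

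The lineage regulators come first. Prdm16 (ENSMUSG00000039410, protein-coding, minus strand, chr4:154316125-154636873 on GRCm38) had 26.5, 22.9 and 27.0 CPM (wild type) and 28.5, 25.6 and 24.1 CPM (ADCY3∆AT, each in the order of replicates 1 to 3). The groups lay over one another. The fold was 1.02 (95% interval 0.890 to 1.17, edgeR adjusted p = 0.929). Its sign changed when wild-type replicate 2 or ADCY3∆AT replicate 1 was left out.

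Ebf1 (ENSMUSG00000057098, plus strand, chr11:44617317-45008091) had 100.9, 110.1 and 104.5 CPM in wild type. In ADCY3∆AT it had 115.7, 101.2 and 100.6 CPM, with replicate 1 the highest of the 6 libraries and the other 2 inside the wild-type range or just below it. Its fold of 1.01 had a 95% interval of 0.902 to 1.12 (edgeR adjusted p = 0.975). EBF1 also works in B cells, blood vessel mural cells and fat progenitors. Summed markers of mural cells were 704.6 to 792.8 CPM for wild type and 743 to 833.2 CPM for ADCY3∆AT, and those of B cells were 1.93 to 2.73 and 2.48 to 4.45 CPM. Progenitor and fibroblast markers summed to 388.8 to 458.9 and 443.8 to 494.1 CPM. Their part in the Ebf1 level was not tested, and in bulk tissue fewer cells of a type and less RNA per cell cannot be told apart.

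Ebf2 (ENSMUSG00000022053, plus strand, chr14:67233292-67430918) had the lowest p of the members. It had 57.8, 62.7 and 59.8 CPM (wild type) and 58.9, 52.7 and 47.5 CPM (ADCY3∆AT). Replicates 2 and 3 of ADCY3∆AT lay below every wild-type library, and replicate 1 lay inside their range. The log2 fold change was -0.18 ± 0.08 (SE), a fold of 0.882 with a 95% interval of 0.777 to 1.00 (edgeR adjusted p = 0.462). Without ADCY3∆AT replicate 1 it was -0.26 (adjusted p = 0.329), and without ADCY3∆AT replicate 3 it was -0.11 (adjusted p = 0.562).

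The make-up of the EBF family was set beside these levels. Ebf2 made up 28.6, 28.2 and 28.1% of the summed counts of Ebf1, Ebf2, Ebf3 and Ebf4 for wild type, and 26.2, 26.6 and 25% for ADCY3∆AT. Ebf1 held 50.0, 49.6 and 49.2% (wild type) and 51.5, 51.2 and 53.1% (ADCY3∆AT). For both genes every ADCY3∆AT library lay outside the wild-type range, the Ebf2 share below it and the Ebf1 share above it. The groups did not overlap for 8 of the 26 shares computed over the EBF, CEBP, TBX and KLF families, and for 16.5% of all genes by level. The shares of one family sum to a whole, so these are not separate observations. Ebf3 held 22.0 ± 0.648% and 22.0 ± 0.104% (SD, n = 3 each). With counts divided by exon length, Ebf2 held 35.3 ± 0.295% and 32.6 ± 0.912%, and Ebf1 43.8 ± 0.312% and 46.3 ± 1.12%. These shares are a description, since an exact permutation test of 3 against 3 libraries cannot give a p below 0.1.

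**Figure D3:**
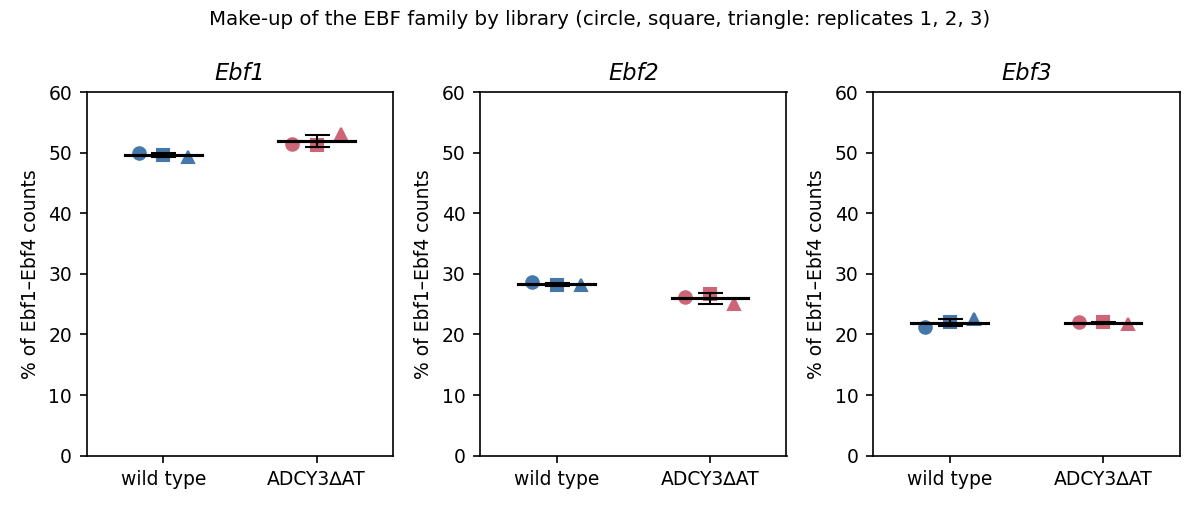
Share of each gene in the summed estimated counts of Ebf1 to Ebf4, in percent, 1 point per library, with the mean (bar) and SD of 3 libraries per genotype. The Ebf2 share is 28.1 to 28.6% for wild type and 25 to 26.6% for ADCY3∆AT, while the Ebf3 mean is 22.0% in both.

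Next are the factors that mark a position or depot. Zic1 (ENSMUSG00000032368, minus strand, chr9:91358058-91365810) had 8.62, 12.9 and 11.2 CPM (wild type) and 9.36, 9.001 and 9.81 CPM (ADCY3∆AT). The ADCY3∆AT libraries lay close together, between the lowest wild-type library, replicate 1, and the other 2. The fold was 0.863 (95% interval 0.693 to 1.08, edgeR adjusted p = 0.621). Zic1 overlaps Zic4, a relative on the opposite strand, by 60 bases of exon. Zic4 had 0.765, 1.79 and 1.62 CPM (wild type) and 0.897, 0.996 and 0.904 CPM (ADCY3∆AT), and replicate 1 was again the lowest wild-type library. Without wild-type replicate 1 the Zic1 log2 fold change was -0.36 in place of -0.21 (edgeR adjusted p = 0.315), and without wild-type replicate 2 it was -0.08 (adjusted p = 0.935).

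Lhx8 (ENSMUSG00000096225, minus strand, chr3:154306294-154330659), a LIM homeobox factor, had 1.99, 3.04 and 3.08 CPM (wild type) and 3.17, 3.05 and 2.71 CPM (ADCY3∆AT). Wild-type replicate 1 was the low library, and the other 5 lay together. Its fold was 1.10 (95% interval 0.808 to 1.51, edgeR adjusted p = 0.831), and the log2 value went from 0.14 to -0.04 without that library.

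Tbx15 (ENSMUSG00000027868, plus strand, chr3:99240381-99354259), a T-box factor, had 4.08, 4.34 and 3.67 CPM (wild type) and 4.55, 4.49 and 3.44 CPM (ADCY3∆AT). The lowest and the highest library were both ADCY3∆AT. The fold of 1.03 had a 95% interval of 0.816 to 1.31 (edgeR adjusted p = 0.939). Tbx1 (ENSMUSG00000009097, minus strand, chr16:18580979-18590671) was too low to test, and a difference between genotypes was not detectable at this depth. Among the other T-box genes Tbx3 took the largest share of counts, 51.7 ± 3.72% for wild type and 47.3 ± 4.23% for ADCY3∆AT, while Tbx15 held 10.8 ± 1.11% and 12.5 ± 2.46% (SD, n = 3 each). With counts divided by exon length, Tbx3 held 39.3 ± 3.52% and 35.3 ± 4.02%, and Tbx15 14.5 ± 1.25% and 16.4 ± 3.03%.

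The third group drives adipocyte differentiation and metabolism. Cebpa (ENSMUSG00000034957, plus strand, chr7:35119293-35121928) had 288.1, 327.2 and 308.3 CPM (wild type) and 304.0, 265.4 and 292.9 CPM (ADCY3∆AT). Replicate 2 of ADCY3∆AT was below every wild-type library and the others were inside the range. The fold was 0.934 (95% interval 0.834 to 1.04, edgeR adjusted p = 0.650). Cebpb (ENSMUSG00000056501, plus strand, chr2:167688915-167690418) had 140.7, 147.2 and 121.4 CPM (wild type) and 141.1, 125.6 and 159.5 CPM (ADCY3∆AT). Here the highest library was ADCY3∆AT replicate 3 and the lowest wild-type replicate 3, and the fold was 1.04 (95% interval 0.886 to 1.22, edgeR adjusted p = 0.873). Of the 1504 exon bases of Cebpb, 312 also belong to exons of Tmem189 on the opposite strand, which had 27.0 to 36.0 CPM. Strand-specific counting is not stated, so reads there cannot be assigned to one gene with certainty.

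Cebpa and Cebpb together supplied most of the family's counts. Cebpa held 54.4 ± 1.29% of the counts of Cebpa, Cebpb, Cebpd and Cebpg for wild type and 51.8 ± 1.59% for ADCY3∆AT, and Cebpb held 24.1 ± 2.05% and 25.5 ± 1.74% (SD, n = 3 each). The Cebpa ranges, 53.0 to 55.6% and 50.5 to 53.6%, overlapped. Cebpd, an early and glucocorticoid-responsive member, held 0.959 ± 0.009% and 1.08 ± 0.0648%, and its ADCY3∆AT libraries all lay above those of wild type. This share is 1 of the 8 among 26 family shares whose groups did not overlap, and Cebpd had few counts. Its level, on which the groups overlapped, had a log2 fold change of 0.14 ± 0.11 (SE, edgeR adjusted p = 0.687). With counts divided by exon length, Cebpa held 50.9 ± 2.11% (wild type) and 48.2 ± 1.84% (ADCY3∆AT), and Cebpb 39.5 ± 2.64% and 41.7 ± 2.15%.

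Klf15 (ENSMUSG00000030087, plus strand, chr6:90462576-90475238) was the most variable member. It had 31.5, 58.1 and 39.5 CPM (wild type) and 28.6, 25.5 and 43.0 CPM (ADCY3∆AT). Replicates 1 and 2 of ADCY3∆AT were the lowest 2 of the 6 libraries, and replicate 3 was above 2 of the wild-type libraries. The coefficient of variation was 31.8% for wild type and 28.8% for ADCY3∆AT, and for the other tested members it ran from 4.15% to 23.0% within a genotype. Its log2 fold change was -0.41 ± 0.25 (SE), a fold of 0.753 with a 95% interval of 0.508 to 1.12 (edgeR adjusted p = 0.594). Single libraries moved this value: it was -0.67 without ADCY3∆AT replicate 3 (adjusted p = 0.249), -0.26 without ADCY3∆AT replicate 2 (0.872), -0.59 without wild-type replicate 1 (0.443) and -0.13 without wild-type replicate 2 (0.930).

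**Figure D4:**
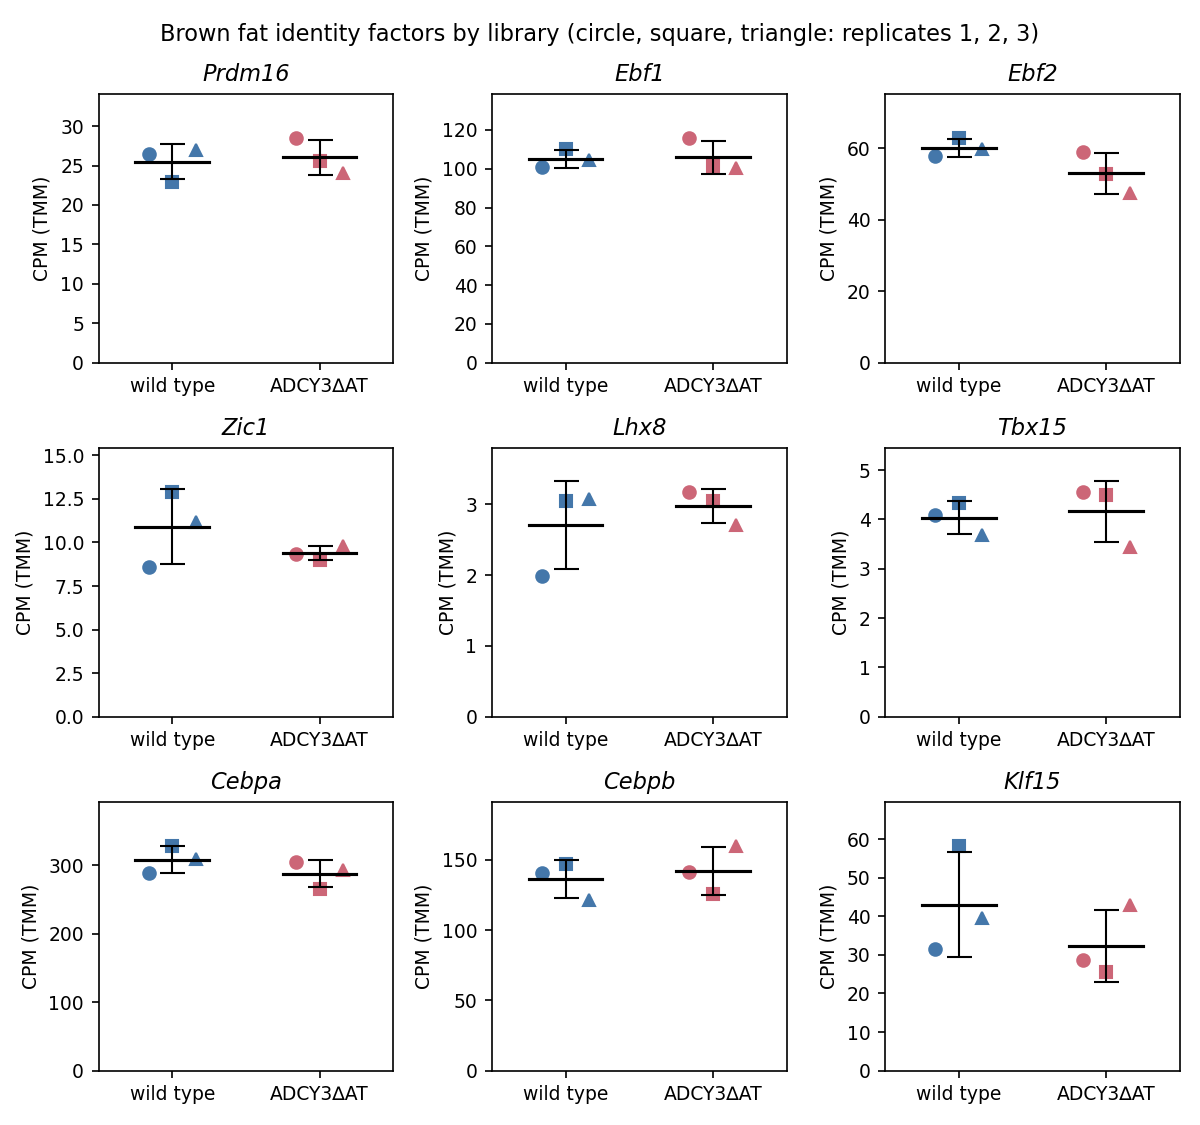
TMM-scaled CPM of the 9 tested factors in each library, with axes from 0, circles, squares and triangles for replicates 1, 2 and 3, and bars for the mean and SD of 3 libraries per genotype. The genotypes overlap in every panel. Ebf2 is 57.8 to 62.7 for wild type and 47.5 to 58.9 for ADCY3∆AT, and Klf15 spreads from 25.5 to 58.1 over all libraries.

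Patterns most like those of the 2 members with the lowest p were sought among 10953 genes, by the root mean square difference of log2 CPM centred over the 6 libraries. Ebf2 itself deviated by 0.133 from its mean on this measure. Klhl7 differed from it by 0.0158, with 24.7, 26.4 and 25.6 CPM for wild type and 24.5, 22.0 and 20.0 CPM for ADCY3∆AT, and Exd1, Sfxn4, Zc2hc1a and Tmem120b followed at 0.0349 to 0.0435. Klf15 deviated by 0.399, and its nearest genes were Fjx1 (0.107), Irs1 (0.129), Esrrb (0.132), Dhtkd1 (0.132) and the pseudogene Ftl1-ps1 (0.135), which may share reads with its parent gene. Irs1, an adaptor of the insulin receptor, had 36.6, 55.5 and 46.0 CPM (wild type) and 32.9, 27.2 and 40.5 CPM (ADCY3∆AT). Its highest library was wild-type replicate 2 and its lowest ADCY3∆AT replicate 2, as for Klf15. This follows from the choice of genes by pattern and is no separate observation.

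Partners and cofactors of these factors were examined as a list of 25, of which 23 were tested. None passed over all genes in edgeR, and DESeq2 called Zbtb16, Bmpr1a and Ppara (it called 1.17% of all genes). An unadjusted p under 0.05 was reached by 3 with a positive and 2 with a negative fold change, against 5.23% and 5.78% of all genes, and the list's median log2 fold change was 0.01. Pparg, which encodes the master regulator of adipocytes, had 252.3, 259.9 and 243.8 CPM (wild type) and 253.2, 249.2 and 254.9 CPM (ADCY3∆AT) (log2 fold change 0.00 ± 0.05, SE). Zbtb16, a zinc finger factor that responds to glucocorticoids, had 32.1, 34.9 and 29.8 CPM (wild type) and 56.99, 82.1 and 47.3 CPM (ADCY3∆AT), with no overlap. Its log2 fold change was 0.95 ± 0.18 (edgeR adjusted p = 0.158, DESeq2 adjusted p = 0.0183).

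Bmpr1a, a receptor for the bone morphogenetic proteins that commit cells to brown fat, had 59.9, 61.0 and 57.6 CPM (wild type) and 50.7, 49.3 and 46.0 CPM (ADCY3∆AT) (log2 fold change -0.29 ± 0.05, SE, edgeR adjusted p = 0.158, DESeq2 0.0146). The wild-type libraries were all higher. Ppara, a PRDM16 target and receptor of fatty acid oxidation, and Ppargc1b, a coactivator of mitochondrial genes, had 0.32 ± 0.06 (edgeR adjusted p = 0.158) and 0.14 ± 0.06 (0.404). Ppargc1a, the cold-induced coactivator that PRDM16 binds, had wild-type values of 92.7 to 101.4 CPM and ADCY3∆AT values of 71.0, 81.9 and 106.0 CPM, so that replicate 3 lay above and the other 2 below every wild-type library. Without ADCY3∆AT replicate 3 edgeR called Zbtb16 (log2 fold change 1.11, adjusted p = 0.0424) as the only member of the list, where 0.355% of all genes were called.

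Relatives of the members in their own families numbered 32, with 21 tested and 0 past the threshold in edgeR, while DESeq2 called Klf2 and Klf11 (1.17% of all genes). Among the untested relatives, Ddit3 was not matched to a row by its symbol, so its counts were not examined. An unadjusted p under 0.05 was reached by 5 with a positive fold change, Klf2, Klf11, Klf6, Klf10 and Klf13 (5.23% of all genes were higher), and by 2 with a negative one, Cebpz and Tbx3 (5.78% were lower). Klf2, a factor of vascular endothelium and of preadipocytes, had 10.6, 10.4 and 10.6 CPM (wild type) and 13.9, 14.5 and 17.6 CPM (ADCY3∆AT) (log2 fold change 0.54 ± 0.10, SE, edgeR adjusted p = 0.158, DESeq2 0.00239). All ADCY3∆AT libraries were higher. Summed endothelial markers were 1062 to 1135 CPM for wild type and 1139 to 1224 CPM for ADCY3∆AT, and their part in the Klf2 value was not tested. Klf11 had 17.1, 15.2 and 14.9 CPM (wild type) and 26.3, 19.3 and 21.3 CPM (ADCY3∆AT) (0.50 ± 0.12, edgeR adjusted p = 0.209, DESeq2 0.0120), again without overlap. Klf6 had 0.21 ± 0.07 (0.312), and Cebpz, which carries the C/EBP name but is no member of that bZIP family, had -0.19 ± 0.06 (SE, edgeR adjusted p = 0.312). Klf9, which supplied the largest share of KLF counts, had a log2 fold change of -0.10 ± 0.13 (SE, edgeR adjusted p = 0.828), and Klf5, with 7 to 9 counts in each wild-type library and 1 in each ADCY3∆AT library, was not tested. The Klf15 share of the summed counts of 10 KLF genes was 7.77, 11.4 and 9.07% (wild type) and 6.35, 5.78 and 8.39% (ADCY3∆AT). With counts divided by exon length it was 15.4 ± 2.85% and 11.2 ± 2.06% (SD).

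Factors of white fat and repressors of the brown programme (15 listed, 12 tested) were centred at a log2 fold change of 0.10 (median), and none passed in edgeR or DESeq2. Klf3 (0.15 ± 0.06, SE) and the Wnt effector Tcf7l1 (0.45 ± 0.19) had an unadjusted p under 0.05, as did 11% of all genes (5.23% higher), with edgeR adjusted p-values of 0.426 and 0.445. With DESeq2, and with the replicate block, 0 genes of this list did. Zfp423, which holds white adipocytes in their fate and restrains EBF2, had 15.3, 13.97 and 13.1 CPM (wild type) and 18.3, 16.1 and 13.9 CPM (ADCY3∆AT) (0.19 ± 0.11, edgeR adjusted p = 0.575). The groups overlapped at replicate 3 of ADCY3∆AT. Nr1h3, the liver X receptor α, had -0.09 ± 0.05 (edgeR adjusted p = 0.550).

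Genes selective for brown fat, among them many targets of PRDM16 and EBF2, were all tested (20 of 20), and the fold change was below 0 for 16 of them (median log2 value -0.06). Over all genes tested it was below 0 for 8890 of 18114 (median 0.00). None of the 20 passed in edgeR, 4 had an unadjusted p under 0.05, all lower in ADCY3∆AT (5.78% of all genes), and DESeq2 called Gk and Elovl3 (1.17% of all genes). Glycerol kinase (Gk) had a log2 fold change of -0.31 ± 0.08 (SE, edgeR adjusted p = 0.241), the elongase Elovl3 -0.38 ± 0.11 (0.305), the deiodinase Dio2 -0.75 ± 0.25 (0.334) and the acyl-CoA synthetase Slc27a2 -0.42 ± 0.15 (0.376). The uncoupling protein Ucp1 had -0.06 ± 0.04 and Cidea, a protein of lipid droplets, -0.02 ± 0.06. Without ADCY3∆AT replicate 3 edgeR called Dio2 (-1.14, adjusted p = 0.0212) and Gk (-0.40, adjusted p = 0.0424), and still none of the identity factors. That fit called 0.355% of all genes, and with any other single library left out edgeR called none of this list.

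**Figure D5:**
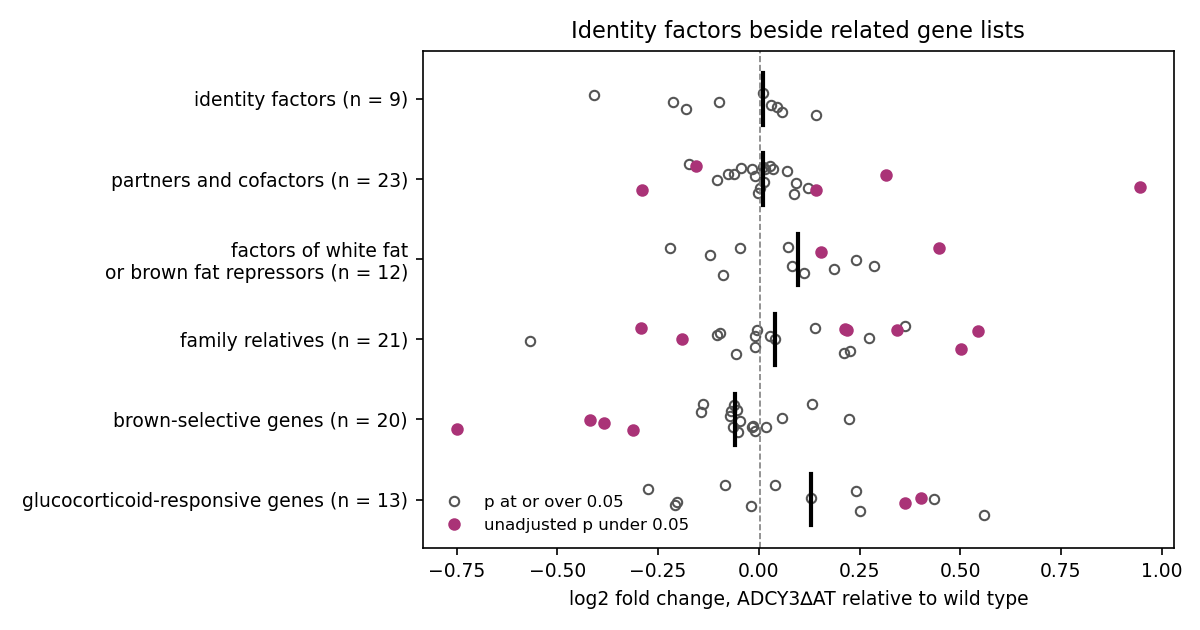
Log2 fold change of ADCY3∆AT relative to wild type for each tested gene of 6 lists, with the list median (black bar) and the median of all genes (dashed line). Filled points have an unadjusted p under 0.05. The identity factors hold no filled point and span -0.41 to 0.14, while brown-selective genes reach -0.75 and Zbtb16 among the partners 0.95.

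Glucocorticoid-responsive genes were set beside Klf15 and Zbtb16, both known to respond to that hormone. All 13 were tested, with 8 positive and 5 negative fold changes, and the median log2 value was 0.13, while neither edgeR nor DESeq2 called any. Angptl4 had 0.40 ± 0.14 (SE, edgeR adjusted p = 0.346), Pdk4 0.36 ± 0.13 (0.382), Tsc22d3 0.25 ± 0.11 (0.474) and Fkbp5 0.43 ± 0.20 (0.482). Klf15, at -0.41, and Zbtb16, at 0.95, thus had fold changes of opposite sign, and the difference between them was not tested.

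Other cell types were checked because several of the factors are not confined to adipocytes. Skeletal muscle markers were lower in every ADCY3∆AT library, with a sum over 12 genes of 555.8 to 1565 CPM for wild type and 6.23, 104.6 and 249.5 CPM for ADCY3∆AT. All 12 had an unadjusted p under 0.05 in edgeR (5.78% of all genes did and were lower), none passed adjusted over all genes, and DESeq2 called 1 (1.17% of all genes). At an unadjusted p under 0.05 the count was 8 in DESeq2 (5.63% of all genes) and 5 with robust estimation (10.8%). With no low-count filter edgeR called 9 (214 of 30714 genes). Wild-type replicate 3 was highest and ADCY3∆AT replicate 1 lowest for each of the 12, so these are not separate observations. Markers of muscle satellite cells, which share the origin of brown adipocytes, were near 0, with a sum over 5 genes of 0.197 to 0.227 CPM for wild type and 0.0656 to 0.151 CPM for ADCY3∆AT, and 4 of the 5 were at 0 in at least 1 library. Adipocyte markers summed to 20050 to 21470 CPM for wild type and 18820 to 19850 CPM for ADCY3∆AT. Of these 10 markers 5 had a positive and 5 a negative fold change (median log2 value 0.00), and the means of the lipase Lpl, 6588 and 5085 CPM, differed most. White adipocyte markers summed to 114.1 to 168.2 and 75.9 to 99.2 CPM, mostly through Nnmt (means 83.5 and 40.2 CPM) and Cyp2e1 (38.3 and 19.2 CPM). DESeq2 called Cyp2e1 (adjusted p = 4.23e-07), as well as 1 endothelial marker, higher in ADCY3∆AT, and 1 mural cell marker, lower (1.17% of all genes). The leptin gene Lep had 5.67, 4.496 and 9.49 CPM (wild type) and 22.9, 17.4 and 2.30 CPM (ADCY3∆AT), with 2 ADCY3∆AT libraries above and 1 below every wild-type library. Macrophage markers summed to 118.9 to 193.9 and 135.6 to 205.2 CPM, and Schwann cell markers to 67.7 to 74.3 and 53.3 to 63.9 CPM. The Schwann cell sum came mostly from Mbp (means 45.6 and 38.8 CPM). Of these 6 markers 5 had a negative fold change. The other, Ngfr, was higher in every ADCY3∆AT library (log2 fold change 0.76 ± 0.26, SE, edgeR adjusted p = 0.341). The part of these other cell types in the identity factors' values was not tested.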

How the data were processed

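Estimated counts per Ensembl gene, not normalised, were deposited for 6 libraries, and 31.6% of the entries carry decimals. The submitters' processing notes list GRCm38, edgeR, Salmon and StringTie, with no version or setting stated in the sources used here. RNA was extracted from homogenised tissue and paired-end libraries were made with the NEBNext Ultra II kit, per the labels' protocols. Symbols from GENCODE M21 matched 54131 of 54385 rows, and the 254 others, which held 0.0028% to 0.0656% of a library, stayed in the fit.

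Counts were rounded, filtered with filterByExpr (18114 genes kept) and scaled with TMM, and genotype was tested with edgeR 4.0.16 (quasi-likelihood F test, Benjamini-Hochberg adjustment over all genes) in R 4.3.3. Standard errors and 95% intervals are those implied by the F statistic. CPM are TMM-scaled. Alternatives were other scalings and filters, robust estimation, removal of mitochondrial or muscle genes, DESeq2 1.42.0, limma 3.58.1 voom, a replicate block and leaving out each library. All library pairs differed by more than sampling noise (chi-square per degree of freedom 22.3 to 65.6).

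Members and lists were chosen with earlier results of these data known. All members, the 4 lowest p-values of each list, Pparg, Ppargc1a, Ucp1, Cidea, Adcy3 and the 5 genes nearest in pattern to the 2 members of lowest p (mean log2 CPM of at least 1) are named by rule. Cebpd, Ebf3, Tbx3, Zic4, Tmem189, Klf5, Klf9, Klf10, Klf13, Lpl, Lep, Nnmt, Cyp2e1, Mbp, Ngfr, Tcf21, Hoxc8, Hoxc9 and Hoxc10 were named after their values had been seen. Ddit3 is named because its symbol was not matched. Promoter sequences are from RefSeq (GRCm38.p6).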

Additional observations from a re-analysis of the deposited data

How the results depend on the processing

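No identity factor passed an adjusted p of 0.05 in any alternative run, and of 144 fold changes of the 9 factors under these alternatives 134 kept their sign. The 10 that changed sign all came from leaving out 1 library, where the log2 value ranged from -0.0403 to 0.0827 for Prdm16, -0.0596 to 0.0445 for Ebf1, -0.04 to 0.249 for Lhx8, -0.0228 to 0.164 for Tbx15 and -0.0341 to 0.139 for Cebpb. The count of factors at an unadjusted p under 0.05, 0 in the reported fit, was 1 (Ebf2) with library totals alone, DESeq2, limma voom and robust estimation, and 2 (Ebf2 and Klf15) with no low-count filter. Leaving out 1 library gave 0 to 2: Zic1 and Klf15 without wild-type replicate 1, Ebf2 without ADCY3∆AT replicate 1 and Klf15 without ADCY3∆AT replicate 3. Factors whose groups did not overlap numbered 0 to 3 of 9 in those fits, where 23.6% to 31.8% of all genes did not overlap. The highest count came without wild-type replicate 1, where 28.7% of all genes did not.

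Over all genes the count past the threshold, 1 as reported, was 232 in DESeq2, 214 with no low-count filter, 2 in limma voom, 2 with robust estimation and 1 to 66 without 1 library, the highest without ADCY3∆AT replicate 3. With the replicate block it was 3, and 0 factors had an unadjusted p under 0.05; samples sharing a number did not deviate together (correlations -0.0857, -0.128 and -0.0864), so the numbers were not taken as pairs. Per length, a scale added after the data were seen, the Ebf2 share of the EBF family was 35.3% in wild type and 32.6% in ADCY3∆AT, and the Ebf1 share 43.8% and 46.3%. At 0 to 2 counts per library the depth sets no usable estimate for Tbx1.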
